A study of Mus musculus with 9 samples.

Results

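The genes described here encode 10 calcium-sensor and calcium-binding proteins of neurons: Necab1, Necab2, Necab3, Vsnl1, Hpca, Hpcal1, Hpcal4, Ncald, Ncs1 and Calb1. They are 10 of the 22180 genes with a named probe set on the arrays, and each has 1 probe set. The set was chosen by the difference between neurons and precursors, in which Necab1 and Vsnl1 stood out, so that difference is given here as a description without a test. Each of 3 cultures from wild-type CD1 mouse embryos was measured in 3 biological replicates on 9 Affymetrix arrays. The cultures were cortical neurons of embryonic day 16 kept for 5 days in total, a co-culture in which cortical precursors of embryonic day 13 were added to such neurons after 4 days and left for 1 day, and cortical precursors of embryonic day 13 kept alone for 1 day. For the neurons the labels state both 4 days and 5 days in total. Neurons and precursors differ in embryonic age and time in culture as well as in cell type, and these cannot be told apart. The labels used here do not say whether embryos were pooled or which litters stand behind a replicate number, and the p-values measure the spread between these cultures only.

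Calcium ions entering a neuron are read by proteins that bind them through EF-hand loops. The neuronal calcium sensor family, to which Vsnl1, Hpca, Hpcal1, Hpcal4, Ncald and Ncs1 belong, consists of small sensors that carry a fatty acid and, in several members, move to membranes when calcium rises. The Necab proteins join an EF-hand part to a domain that resembles a bacterial monooxygenase, and calbindin, the product of Calb1, buffers calcium and marks subsets of cortical and hippocampal neurons.

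Values are log2 levels as deposited, made by the authors with RMA, a method that corrects background, brings the arrays to 1 distribution and combines each probe set into a single value. The array medians lay between 6.75 and 6.79. All 10 genes passed the filter for testing, a level above the array median on at least 3 arrays, which left 13012 genes in all. Necab1 was above it on 7 of the 9 arrays and the other members on all 9. The cultures matched their labels by markers: all 9 precursor markers, among them Mki67, Sox2 and Pax6, were lower in neurons than in precursors, and 7 of 8 neuronal markers were higher, the exception being Tubb3 (limma, adjusted p under 0.05). Markers of excitatory cortical neurons were split: 4 of 7 were higher in neurons, among them Cux2 (log2 difference 0.75), and Tbr1 (-0.95), Slc17a6 (-0.58) and Bcl11b (-0.41) were lower. The mean level of the neuronal markers was 11.75 to 11.80 in the neuron arrays, 11.25 in all 3 co-culture arrays and 10.92 to 10.98 in the precursor arrays, so the precursor cultures also held neuronal RNA. Markers of other cells went both ways in neurons against precursors: all 3 tested endothelial markers and 2 of 3 astrocyte markers were lower, with 1 astrocyte marker higher, and of 3 microglial markers 1 was higher and 1 lower. Of 4 tested oligodendrocyte lineage markers, 1 was lower in neurons. No tested marker of these other cells or of precursors passed between co-culture and precursors, where 4 of 8 neuronal markers were higher. In that comparison 2 of 8 GABA neuron markers were also higher, and 0 of 7 excitatory neuron markers passed. In whole cultures, fewer cells of a type and less RNA per cell cannot be told apart.

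The RefSeq promoter table (GRCm38.p6) held 11 start sites for 7 of the 10 genes; Necab1, Ncald and Calb1 had no entry in it. The 250 bases before the start are shown for Vsnl1 and Hpcal4, the genes of the neuronal calcium sensor family with the largest differences between neurons and precursors. Capitals mark CAGATG or its reverse complement, an E-box sequence of the kind that neurogenic helix-loop-helix factors bind.
Vsnl1, chr12:11436579-11436828, minus strand: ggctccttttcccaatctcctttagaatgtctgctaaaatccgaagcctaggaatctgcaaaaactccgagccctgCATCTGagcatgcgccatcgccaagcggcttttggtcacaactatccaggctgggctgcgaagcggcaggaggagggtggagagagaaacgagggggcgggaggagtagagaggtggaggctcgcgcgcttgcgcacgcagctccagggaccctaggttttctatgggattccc
Hpcal4, chr4:123183254-123183503, plus strand: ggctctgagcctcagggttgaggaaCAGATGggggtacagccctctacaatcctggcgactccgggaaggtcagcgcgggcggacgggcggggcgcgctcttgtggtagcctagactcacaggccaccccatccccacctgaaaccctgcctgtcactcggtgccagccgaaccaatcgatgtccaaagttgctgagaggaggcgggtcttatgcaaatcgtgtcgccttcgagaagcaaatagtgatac
The sequence CAGATG, searched on both strands, began 174 bases before this Vsnl1 start and 225 bases before the Hpcal4 start. It was in 2 of the 11 windows of these genes and in 14.4% of all 32851 promoter windows of this length. The other Vsnl1 start site did not hold it. The cyclic AMP response element TGACGTCA, read by calcium-regulated transcription factors, was in 0 of the 11 windows and in 1.55% of all windows, and the TATA box TATAAA was in 0 of the 11 and in 12.4% of all. These matches describe the letters in the window and were not tested for binding.

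Vsnl1, which encodes visinin-like protein, a membrane-binding sensor used as a marker of neurons, was among the genes farthest above precursors in neurons. Its level was 11.93, 11.66 and 11.81 in neuron replicates 1 to 3, 10.26 in each of the co-culture replicates, and 8.21, 7.94 and 8.01 in precursor replicates 1 to 3. The groups did not overlap. The mean was 11.80 ± 0.13 in neurons and 8.05 ± 0.14 in precursors (SD, n = 3 each), a 13.4-fold difference that ranked as number 3 of the 13012 tested genes.

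Hpcal4, which encodes a further visinin-like protein, followed at 9.20, 9.40 and 9.08 in neurons, 8.07, 7.92 and 7.98 in the co-culture, and 7.50, 7.28 and 7.86 in precursors. Neurons lay above both other cultures on all arrays, by 3.20-fold over precursors (log2 difference 1.68). Precursor replicate 3 stood highest among the precursors and just below the lowest co-culture array. The spread of Hpcal4 in precursors (SD 0.29) was the widest of any of the 10 genes in any culture.

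The other genes of the sensor family stood less than 2-fold apart between the cultures. Ncald, which encodes neurocalcin delta, was at 7.25, 7.54 and 7.65 in neurons, 7.01, 6.87 and 7.03 in the co-culture, and 6.92, 6.86 and 6.77 in precursors, a log2 difference of 0.63 between neurons and precursors. Ncs1, whose product regulates phosphatidylinositol kinase activity and transmitter release, was at 9.83, 9.97 and 9.91 in neurons, 9.77 in each co-culture array, and 9.59, 9.64 and 9.61 in precursors. The Ncs1 groups did not overlap, although neurons stood above precursors by only 0.29 on the log2 scale.

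Hpcal1, whose hippocalcin-like product belongs to the visinin-like proteins, was at 7.87, 8.06 and 7.97 in neurons, 7.73, 7.87 and 7.82 in the co-culture, and 7.59, 7.85 and 7.69 in precursors. Neurons were above precursors by 0.26, and the co-culture overlapped precursors. Hpca, which encodes hippocalcin, a sensor abundant in mature hippocampal neurons, was at 7.07, 7.17 and 7.48 in neurons, 6.82, 7.04 and 7.05 in the co-culture, and 6.997, 6.90 and 7.09 in precursors. Its neuron and precursor arrays overlapped, and it was the 1 gene of the 10 with a co-culture mean (6.97) outside the range of the other 2 means, 7.24 in neurons and 6.996 in precursors.

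The 3 Necab genes went different ways. Necab1, which encodes an EF-hand protein found in subsets of neurons, stood farthest above precursors of all tested genes, at 11.26, 11.42 and 11.33 in neurons, 9.87 in each co-culture array and 6.75, 6.80 and 6.74 in precursors. The mean was 11.33 ± 0.082 in neurons and 6.76 ± 0.029 in precursors (SD, n = 3 each). The precursor levels stood at about the array medians, and no detection calls were used, so the 23.7-fold difference may be too small.

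Necab2, whose product binds metabotropic glutamate and adenosine receptors, was at 8.57, 8.65 and 8.62 in neurons, 8.07, 8.08 and 8.11 in the co-culture, and 7.81, 7.81 and 7.84 in precursors. The arrays of each culture lay close together and the cultures did not overlap, with neurons 1.74-fold above precursors. Necab3, which binds a neuronal adaptor protein of the amyloid precursor pathway and is also made outside the brain, ran the other way, at 6.93, 6.88 and 7.04 in neurons, 7.26, 7.22 and 7.41 in the co-culture, and 7.37, 7.43 and 7.37 in precursors. Its neuron arrays lay below all others, by 0.44 on the log2 scale from the precursors, while co-culture replicate 3 fell within the precursor range.

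Calb1 was at 9.78, 9.60 and 9.57 in neurons, 8.58, 8.58 and 8.40 in the co-culture, and 7.98, 7.73 and 7.86 in precursors. The 3 cultures did not overlap, and neurons were 3.47-fold above precursors. Calb1 marks GABA neurons among other types, and the 8 measured GABA neuron markers had a mean level of 9.68 to 9.72 in neurons, 9.41 to 9.66 in the co-culture and 9.13 to 9.62 in precursors. Of these 8, 5 were higher in neurons, with Sst at 1.40 and Gad1 at 0.71, and 3 were lower, with Dlx2 at -0.80. In the co-culture 2 of the 8 were higher than in precursors and 0 were lower. The part of GABA neurons in the Calb1 level was not tested.

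**Figure D1:**
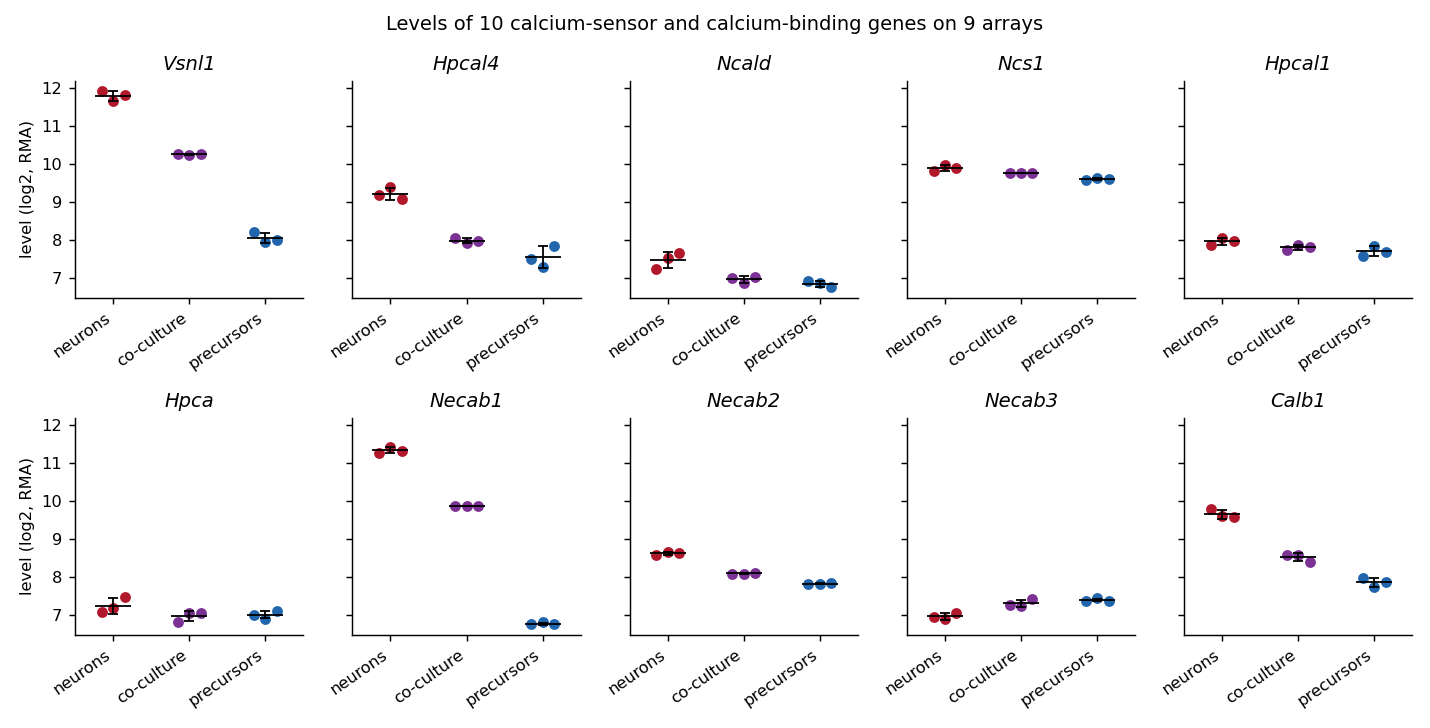
Log2 RMA level (vertical axis) of each of the 10 genes in neurons, co-culture and precursors; points are arrays, bars the mean and SD of 3 arrays. Necab1 spans 11.33 to 6.76 and Vsnl1 11.80 to 8.05 between the neuron and precursor means, while Necab3 is lowest in neurons at a mean of 6.95.

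By count, 8 of the 10 genes had all 3 neuron arrays above all 3 precursor arrays and 1, Necab3, had them below. Of all tested genes, 29.5% lay above and 36.9% below in this way. Since this contrast chose the set, nothing is read from these counts, nor from the median and the fold counts that follow. The median log2 difference of the 10 was 0.71, against -0.020 over all tested genes, and 4 of the 10 (Necab1, Vsnl1, Calb1 and Hpcal4) were at least 2-fold higher, as were 5.49% of all genes. None of the 10 was lower by that much, as were 4.8% of all genes.

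Setting the co-culture against precursors alone asks which levels differ when precursors are kept with neurons, and RNA of those neurons is in the lysate. The precursor arrays were also used in choosing the genes. The difference that chose them does not involve the co-culture arrays, but earlier results of these data were known at the time. Of the 10 genes, 4 rose in the co-culture and 0 fell, where 8.22% of all tested genes rose and 0.2% fell (limma, Benjamini-Hochberg adjusted p under 0.05). At an unadjusted p under 0.05 (limma), Hpcal4 and Ncs1 were also higher, and none of the 10 was lower. The share of all tested genes at that looser threshold was not counted, so nothing is read from it. Necab1 rose 8.60-fold (log2 difference 3.10, SE 0.049, limma adjusted p = 1.46e-09) and Vsnl1 4.61-fold (2.21, SE 0.081, adjusted p = 4.61e-07). These were the largest and the second-largest rises of the 13012 genes. Both genes were chosen for their rise in neurons over these same precursor arrays, and the lysate holds neuron RNA. Nothing is therefore read from these 2 ranks, and the 2 adjusted p-values rest on the same choice. The counts of the 10 genes beside all tested genes, here and in the next paragraph, are likewise only described.

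Calb1 rose 1.58-fold (0.66, SE 0.083, adjusted p = 8.17e-04) and Necab2 1.20-fold (0.27, SE 0.040, adjusted p = 0.00258). The co-culture arrays of these 4 genes, and of Hpcal4 and Ncs1, lay wholly above the precursor arrays, as for 19.4% of all tested genes, and none of the 10 lay wholly below, as for 5.4%. Hpcal4 differed by 0.44 (95% interval 0.14 to 0.74, adjusted p = 0.0833) and did not pass. Without precursor replicate 3, its highest precursor array, it did (0.60, adjusted p = 0.00977), and the stricter filter, a level above the 75th percentile, also let it pass (adjusted p = 0.0469).

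Ncs1 differed by 0.16 (95% interval 0.061 to 0.27, adjusted p = 0.0606) and was near the threshold. It passed with array weights (0.0205), with a variance trend (0.0240), with the stricter filter (0.0246), without neuron replicate 1 (0.0425) and without neuron replicate 2 (0.0356). Ncald (0.12, interval -0.097 to 0.34), Hpcal1 (0.096, interval -0.074 to 0.27), Hpca (-0.026, interval -0.27 to 0.21) and Necab3 (-0.094, interval -0.23 to 0.045) had adjusted p between 0.534 and 0.951 and passed in no fit that tested them. Their intervals leave room for differences of up to about 0.3.

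**Figure D2:**
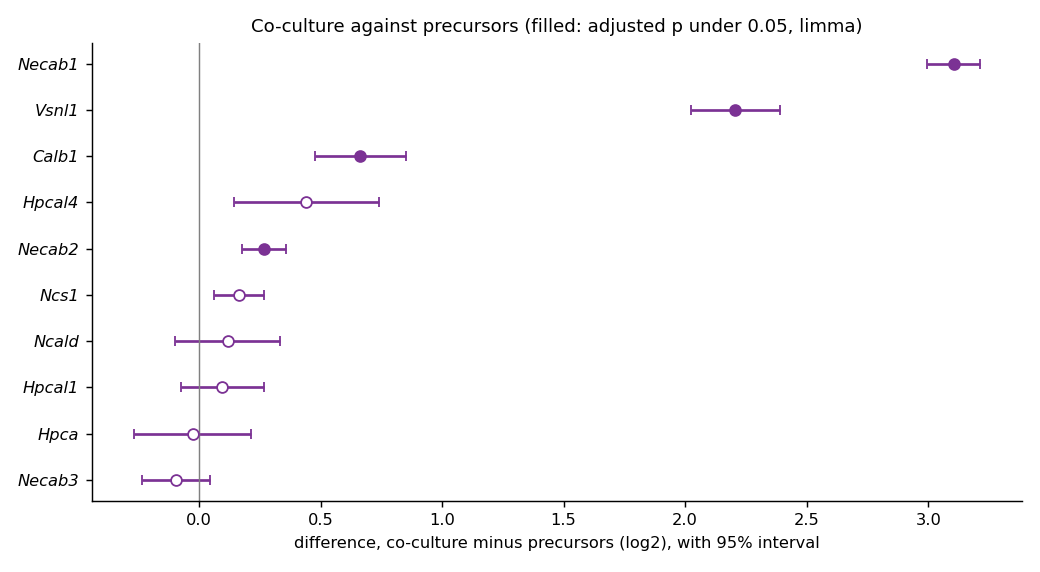
Difference of each gene between co-culture and precursors (horizontal axis, log2) with its unadjusted 95% interval from limma; filled points passed at adjusted p under 0.05. Necab1 at 3.10 and Vsnl1 at 2.21 stand far from the others, the next being Calb1 at 0.66.

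Equal values bear on the errors above. Co-culture replicates 1 and 2 of Calb1 held the same value to all deposited digits, as did replicates 2 and 3 of Necab1 and 1 and 3 of Vsnl1. The 3 co-culture values of Necab1, Vsnl1 and Ncs1 lay within 0.005 of each other, and those of Ncs1 were the same to all deposited digits. Of all tested genes, 2.19% had co-culture values this close, against 0.469% in neurons and 0.907% in precursors. The robust summary step of RMA works on all arrays at once and can give several arrays the same value; its part here was not tested. With the spread of the neuron and precursor arrays alone, a check chosen after seeing the data, all 4 genes that rose still passed (adjusted p = 1.19e-06 for Necab1, 6.06e-05 for Vsnl1, 0.0046 for Calb1 and 0.0192 for Necab2).

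Against neurons alone, the co-culture was lower for 7 of the 10 genes and higher for 1, where 24.9% of all tested genes were lower and 35.7% higher (limma, adjusted p under 0.05). The co-culture arrays of 9 of the 10 lay wholly below the neuron arrays and those of 1, Necab3, wholly above, against 27.3% and 38.1% of all tested genes. This comparison shares the co-culture arrays with the previous one, and the neuron arrays were used in choosing the genes. Nothing is therefore read from how these counts stand beside those of all tested genes. Vsnl1 fell by 1.54 on the log2 scale (SE 0.081), Necab1 by 1.47 (SE 0.049), Hpcal4 by 1.24 (SE 0.13) and Calb1 by 1.13 (SE 0.083). Necab2 fell by 0.53 and Ncald by 0.51 (adjusted p = 2.89e-06 and 0.00114). Necab3 was higher in the co-culture by 0.34 (SE 0.062, adjusted p = 8.73e-04).

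The call for Ncs1 (-0.13, adjusted p = 0.0343) depended on the fit. It was lost with centred arrays (0.0825), without the filter (0.0735), with the spread of the separate cultures (0.0791), without co-culture replicate 1, 2 or 3 (0.0814, 0.0811 and 0.0762) and without neuron replicate 2 or 3 (0.0961 and 0.0685). Hpca (-0.27, adjusted p = 0.0525) and Hpcal1 (-0.16, adjusted p = 0.0926) did not pass. Hpca passed without neuron replicate 1 (0.0228), with array weights (0.0467) and with centred arrays (0.0485), and Hpcal1 passed with cyclic loess (0.0493).

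The position of the co-culture between the separate cultures was then set on the linear scale, where 0% is the mean precursor level and 100% the mean neuron level. For the 4 genes at least 2-fold apart the positions differed. Necab1 was at 33.3%, 33.4% and 33.4% in co-culture replicates 1 to 3, and Vsnl1 at 29.0%, 28.9% and 29.0%. Calb1 was at 26.2%, 26.2% and 18.3%, with replicate 3 lower and replicates 1 and 2 resting on the same deposited value. Hpcal4 was at 19.0%, 12.7% and 15.3%.

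The median over the 103 other tested genes at least 4-fold higher in neurons was 22.5% ± 1.23 (SD, n = 3). The mean position of Necab1 (33.4%) was above that of 98 of these 103 genes and that of Vsnl1 (28.9%) above 91, while that of Hpcal4 (15.7%) was above 10. Calb1 (23.6%) lay near the middle, above 63. Hpcal4 (3.20-fold) and Calb1 (3.47-fold) fall short of the 4-fold limit of these other genes. With other genes at least 2-fold higher the median was 22.4%, and no count of genes below each member was made there. The highest of the 103 were the activity-dependent transcription factor genes Nr4a3 (41.9%), Npas4 (39.5%) and Nr4a2 (36.2%). Leaving out any 1 array kept Necab1 between 32.5% and 34.4%, Vsnl1 between 27.5% and 30.4% and Hpcal4 between 12.1% and 19.8%, while the median of the other genes stayed between 21.8% and 23.1%. These are positions and not shares of cells, and no test was made of them.

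**Figure D3:**
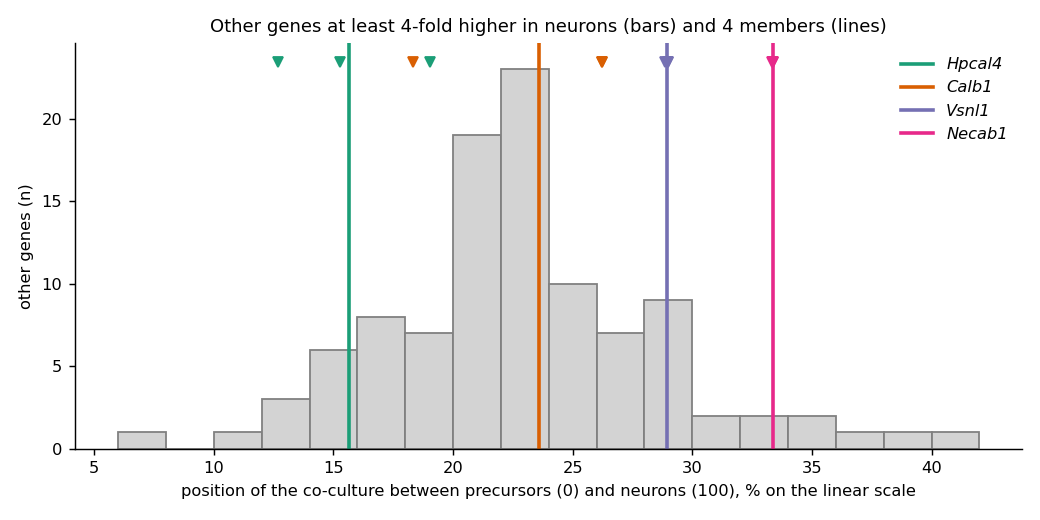
Position of the co-culture between precursors (0%) and neurons (100%) on the linear scale (horizontal axis) for 103 other genes at least 4-fold higher in neurons (bars, number of genes) and for 4 genes of the set (lines, means; triangles, the 3 co-culture arrays). Necab1 at 33.4% and Vsnl1 at 28.9% lie to the right of most bars, and Hpcal4 at 15.7% to the left.

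Genes outside the set with the most similar pattern were sought by the root mean square difference of gene-centred log2 values over the 9 arrays. The values were not scaled, so this distance depends on the size of the differences between cultures as well as on their shape. Of the genes named next, Gabrb1, Npy1r and Grm3 ranked 2, 4 and 5 by their rise in neurons over precursors. The nearest to Vsnl1 were Gabrb1, a GABA-A receptor subunit (0.13), Npy1r, a neuropeptide Y receptor (0.23), Grm3, a metabotropic glutamate receptor (0.23), and Rgs4, a regulator of G protein signalling (0.30). The same 4 genes were the nearest to Necab1 outside the set but farther off, at 0.46, 0.59, 0.61 and 0.63, and Vsnl1 itself was nearer to Necab1 (0.43). Gabrb1 had means of 10.51 in neurons, 8.74 in the co-culture and 6.72 in precursors. For Necab3, the gene lower in neurons, the nearest were Tmem167 (0.030), Mrps9, a mitochondrial ribosomal protein gene (0.042), Polg, the mitochondrial DNA polymerase (0.045), and Rassf8 (0.046). Necab3 differed little between cultures, so these smaller distances are not a closer likeness than those above.

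Other calcium genes were taken as 3 lists. Of 40 other EF-hand sensors and buffers, 36 had a named probe set and 24 were tested. In neurons 8 exceeded and 8 fell below their precursor level, where 28% of all tested genes were higher and 35.2% lower (limma, adjusted p under 0.05). Kcnip4, a sensor that binds A-type potassium channels, was 4.18-fold higher (log2 difference 2.06, SE 0.13) and Caln1, which encodes a calneuron, 3.24-fold. Calb2, the gene of the buffer calretinin, was lower at -1.16 (SE 0.081, adjusted p = 1.04e-06), on the other side of 0 from Calb1, and Efhd2 at -1.24. The median difference of the list was -0.12, against -0.020 over all tested genes, and its count of 8 higher was 3 with the stricter filter, which tests fewer genes. In the co-culture 1 of the 24, Kcnip4, rose over precursors (0.69, limma adjusted p = 0.00948). None of the 24 fell, where 8.22% of all tested genes rose and 0.2% fell. With the replicate block, a pairing by number that the labels do not state, Calb2 fell (-0.26, adjusted p = 0.0339, limma), against an adjusted p of 0.102 without it. With array weights 3 rose and 1, again Calb2, fell, and without precursor replicate 1, 2 rose.

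Calb2 is also made by Cajal-Retzius cells, whose 5 listed markers had a mean level of 6.86 to 7.27 in neurons, 7.44 to 7.51 in the co-culture and 7.49 to 7.57 in precursors. Its own means were 7.86 in neurons, 8.76 in the co-culture and 9.02 in precursors. Of the 3 tested, 1, Ebf3, was lower in neurons than in precursors (-1.30), Trp73 did not pass, and Reln, the defining gene, averaged 10.21 in neurons and 10.16 in precursors and did not pass. The other 2, Lhx1 and Lhx5, were below the filter. The part of these cells in the Calb2 difference was not tested. Parvalbumin (Pvalb), S100b and 10 more genes of the list were below the filter.

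Partners of calmodulin and calcineurin were mostly higher in neurons. Of 22 tested genes 19 were higher and 3 lower, against 28% and 35.2% of all tested genes, with a median difference of 0.57. Camkv, a kinase-like calmodulin-binding protein of vesicles, was 5.28-fold higher (2.40, SE 0.054), Adcy1, a calcium-stimulated adenylyl cyclase, 4.98-fold (2.32, SE 0.047), Nrgn, the calmodulin-binding protein neurogranin, 2.72-fold and Ppp3cc, a calcineurin subunit, 2.18-fold. Against precursors the co-culture was higher for 7 and lower for 0 of the 22, against 8.22% and 0.2% of all tested genes, led by Camkv (0.98) and Adcy1 (0.94). The count of 7 was 4 without co-culture replicate 2.

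Of 24 tested calcium pumps, exchangers and store channels, 14 were higher in neurons than in precursors and 1, Ryr1, was lower, with a median of 0.25, where 28% and 35.2% of all tested genes were higher and lower. The sodium-calcium exchanger Slc8a1 was 3.64-fold, the plasma membrane pumps Atp2b3 and Atp2b2 3.36-fold and 2.39-fold, and the ryanodine receptor Ryr3 3.17-fold higher. In the co-culture 7 rose over precursors and 0 fell, where 8.22% and 0.2% of all tested genes did so, led by Slc8a1 (0.64, SE 0.067, adjusted p = 2.67e-04) and Atp2b3 (0.61, SE 0.12, adjusted p = 0.0129). Without neuron replicate 2, 2 of these genes in place of 1 were lower in neurons. No gene of the 3 lists that was named here differed between neurons and precursors by as much as Necab1 or Vsnl1. Those 2 genes led to the choice of the set by this same difference, so nothing is read from their lead.

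**Figure D4:**
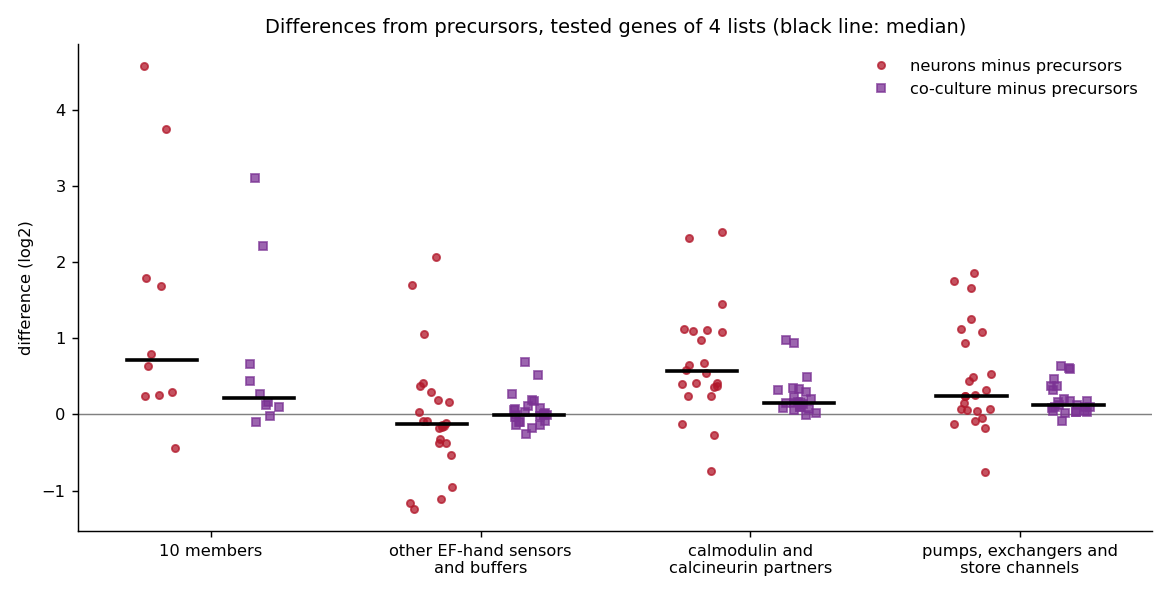
Log2 difference from precursors (vertical axis) of the 10 genes and of the tested genes of 3 calcium lists, for neurons (red circles) and co-culture (purple squares); black lines are medians. Neuron medians are 0.71, -0.12, 0.57 and 0.25 from left to right. Necab1 (4.57) and Vsnl1 (3.75), whose neuron difference led to the choice of the 10 genes, lie above every other point. The first median is therefore not compared with the others.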

How the data were processed

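RNA levels of 3 cultures were measured on 3 arrays each. The authors deposited log2 values, 1 per probe set and array, and the submitters' processing notes name oligo and RMA; the sources used here give neither versions nor a genome build. The platform annotation gave a single symbol for 23521 of 41345 probe sets, several for 1814 and none for 16010. Each of the resulting 22180 genes was represented by its brightest probe set on average. Genes above the array median on at least 3 arrays (13012) were tested in 1 limma model (version 3.58.1, R 4.3.3; lmFit, eBayes) of 3 groups, two-sided, with Benjamini-Hochberg adjustment at 0.05. Arrays have no read depth, so their number limits the precision.

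The members, lists and rules were chosen with earlier results of these data known. Named are all 10 members, for Necab1, Vsnl1 and the member that fell most the 4 genes outside the set nearest in pattern, and of each calcium list up to 4 genes with the largest difference between neurons and precursors and up to 2 between co-culture and precursors; other genes were named after their values were seen. Same-numbered co-culture and precursor arrays deviated together (r = 0.34, 0.30 and 0.16, all above the limit of 0.1). Neurons passed that limit only in part with precursors (0.0043, 0.13 and -0.15) and with the co-culture (-0.0051, 0.27 and 0.17). Differently numbered arrays were not compared and the labels used here state no pairing, so whether the numbers pair cultures is not settled. The main model leaves the numbers out. On simulated arrays of the 13012 genes with 200 changed 1.5-fold between co-culture and precursors, 88.5% were recovered and 3.28% of calls were false. The simulated arrays had independent normal spread, no tied values and no other differences, unlike the real ones. These percentages are therefore not error rates of the calls above. Alternatives were the filter, normalization, array weights, variance trend, probe set, replicate block and leaving out each array.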

Additional observations from a re-analysis of the deposited data

How the results depend on the processing

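The count of 4 genes of the set higher in the co-culture than in precursors stayed between 4 and 5 when any 1 array was left out, and 0 were lower; it was 6 with the filter at the 75th percentile and 5 with array weights. Necab1, Vsnl1, Calb1 and Necab2 passed under all 18 alternatives to this comparison, with the highest adjusted p of 0.0192 for Necab2 (limma). Of all genes, 1069 were higher and 26 lower; with the spread of the separate cultures 706 and 14. The lower count was 87 with array weights, 43 with the filter at the 75th percentile, 40 without the filter, and 42 with the replicate block or the variance trend; leaving out arrays gave 676 to 1112 higher and 7 to 51 lower, the extremes being 676 and 10 without co-culture replicate 2, 7 lower when replicate 1 of the co-culture was dropped, and 51 lower without neuron replicate 2, with 14 lower without precursor replicate 2. With the replicate block, 1044 genes were higher, and no call of the 10 between co-culture and precursors changed. Against neurons, where same-numbered arrays did not all deviate together, the block gave 9 lower in place of 7, adding Hpca (limma adjusted p = 0.0158) and Hpcal1 (0.0152). There, 6 to 8 were lower when 1 array was left out, and 0 were higher with the filter at the 75th percentile, which does not test Necab3. The median position of other genes was 20.9% with cyclic loess, where Necab1 was at 31.1% and Vsnl1 at 26.9%. Detection calls were not used, so folds of genes near the array median, such as Necab1 in precursors, are limited by signal over background. Causes of these changes were not tested.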

Other observations

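Necab1 and Calb1 lie on the same chromosome, with 9 annotated genes between their starts in the RefSeq table (GRCm38.p6), of which Tmem64 is the 1 that codes for protein. Tmem64, a transmembrane protein gene looked up for its place and not for its values, was at 8.43, 8.48 and 8.14 in neurons, 8.01, 8.15 and 7.85 in the co-culture, and 7.94, 7.71 and 7.94 in precursors. It was higher in neurons than in precursors by 0.49 on the log2 scale (adjusted p = 0.0029, limma), against 4.57 for Necab1 and 1.80 for Calb1 described above, and its co-culture arrays overlapped the precursor arrays.

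The co-culture mean lay between the means of the separate cultures for 9 of the 10 genes and for 63.4% of all tested genes. The set was chosen by the difference between those separate cultures, so nothing is read from this comparison.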
